A study of Mus musculus with 9 samples.

Results

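The mRNA of 8 genes was followed in samples labelled as mouse pancreatic tumor cells, in which markers of other cells were present too. The 8 are 7 genes that make, break down or sense prostaglandins (Ptgs1, Ptgs2, Ptges, Hpgd, Ptger2, Ptger4 and Pla2g4a) and Epha2, a receptor tyrosine kinase. They were chosen by name from a table of 24493 genes, which held all 8. The 9 samples formed 3 groups of 3: Usp22-KOA, Usp22-KOB and wild type (WT). Samples of all 3 groups came from 1 tumor cell clone, 6419c5, of C57BL/6 origin, described as late stage and taken from tumors implanted under the skin of mice. The groups differ by genotype at Usp22, which encodes a deubiquitinase that works within SAGA, a transcriptional coactivator. Not given in the sources used here are the meaning of A and B, how each knockout was made and whether it is 1 subclone, the age of the mice, any separation of tumor cells from host cells, and whether the samples of a group came from separate mice. The p-values therefore describe the scatter among these samples, part or all of which may be technical. Polyadenylated RNA was sequenced and the values are in TPM, transcript abundance per length scaled to 1000000 in each library.

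Prostaglandins are lipid signals made from arachidonic acid. Cytosolic phospholipase (Pla2g4a) frees arachidonic acid from membranes, the cyclooxygenases Ptgs1 and Ptgs2 convert it to a common precursor, and Ptges turns that precursor into prostaglandin E. A dehydrogenase, Hpgd, starts the inactivation of prostaglandin E, which otherwise acts on the receptors Ptger1 to Ptger4, of which Ptger2 and Ptger4 raise cyclic AMP. In tumors prostaglandin E is known for restraining T cells and dendritic cells. EphA2 binds ephrin-A ligands on neighbouring cells, and in mouse pancreatic tumor cells it has been linked to Ptgs2 expression.

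Ptgs1 and Ptgs2 code for enzymes with the same reaction but differed here, with Ptgs1 called in every comparison and Ptgs2 in none, and Epha2 fell in both knockouts. The 250 bases before the start of these 3 genes are therefore shown, from RefSeq on GRCm38.p6 and 5′ to 3′ on the gene's own strand. All 8 genes had an entry in that table. Ptgs1 (chr2:36230176-36230425, plus strand) has 48.0% G and C in this window. Ptgs2 (chr1:150099781-150100030, plus strand) has 61.6%, and Epha2 (chr4:141300971-141301220, plus strand) has 55.6%.
Ptgs1: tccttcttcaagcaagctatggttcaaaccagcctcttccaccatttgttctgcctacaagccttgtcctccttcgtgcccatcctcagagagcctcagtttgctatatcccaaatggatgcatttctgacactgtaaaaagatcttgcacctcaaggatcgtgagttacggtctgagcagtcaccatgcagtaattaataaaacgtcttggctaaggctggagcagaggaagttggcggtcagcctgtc
Ptgs2: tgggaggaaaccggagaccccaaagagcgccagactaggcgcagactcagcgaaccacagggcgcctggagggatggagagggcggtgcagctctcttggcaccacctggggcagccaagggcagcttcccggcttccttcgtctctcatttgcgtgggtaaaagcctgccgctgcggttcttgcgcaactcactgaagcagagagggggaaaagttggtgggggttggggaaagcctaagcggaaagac
Epha2: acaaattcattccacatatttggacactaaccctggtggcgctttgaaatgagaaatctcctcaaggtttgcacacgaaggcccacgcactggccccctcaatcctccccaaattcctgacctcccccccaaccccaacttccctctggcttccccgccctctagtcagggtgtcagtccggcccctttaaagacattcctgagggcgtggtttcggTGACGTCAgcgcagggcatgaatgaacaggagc
Both strands were searched for TATAAA (the TATA box), CGTCA (a short form of the cyclic AMP response element), TGANTCA (AP-1) and CACGTG (the E-box). The capitals mark the matches. In the Epha2 window 2 short forms overlap, from 33 to 29 and from 30 to 26 bases before the start, and together they spell the full element TGACGTCA. The short form is in 17.8% of the 32851 promoter windows of the table, and the full element, looked up after the match was seen, is in 1.55%. The windows of Ptgs1 and Ptgs2 hold none of the 4 motifs, which are found in 12.4% (TATAAA), 6.75% (TGANTCA) and 6.02% (CACGTG) of all windows. Bases after the annotated start or further upstream were not searched, so these genes are not shown to lack the motifs there. A match is a description of the letters and not a measured binding site.

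Usp22 itself was read first. It stood at 9.77, 8.46 and 10.1 TPM in Usp22-KOA samples and 11.8, 14.9 and 14.1 TPM in Usp22-KOB, against 55.1, 54.5 and 56.4 TPM in WT, so all 6 knockout samples lay below the WT samples, as labelled. The tests below use log2(TPM + 1), in 1 limma fit of the 9 samples over 13843 genes that averaged 1 TPM or more. A gene is called, and is said to rise or fall, where its Benjamini-Hochberg adjusted p lies under 0.05. Of the 8 genes 7 were tested, and Ptger2, with a mean of 0.902 TPM, was set aside by the filter. Differences are given on the log2(TPM + 1) scale ± SE, which understates the change of low genes.

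For the average of the knockouts relative to WT, 5 of the 7 tested genes were called, with 50.0% of all genes called. Ptgs1 rose (25.9% of all genes rose), and Hpgd, Pla2g4a, Ptger4 and Epha2 fell (24.1% of all genes fell). In Usp22-KOA against WT the same 5 were called, with 56.3% of all genes called, 29.4% as higher and 26.9% as lower. In Usp22-KOB against WT 5 were called, Ptgs1 as higher and Hpgd, Pla2g4a, Ptges and Epha2 as lower, with 37.1% of all genes called, 18.7% as higher and 18.4% as lower. Between Usp22-KOA and Usp22-KOB 5 of the 7 differed, 3 higher and 2 lower in Usp22-KOA, with 51.7% of all genes called, 27.5% as higher and 24.2% as lower. About every second gene was called in most comparisons, so those counts are near or not far above the background. In Usp22-KOB against WT the 5 of 7 lie further above the share of all genes, 37.1%. The counts rest on 7 genes chosen with earlier results known and were not tested, so the sizes and per-sample values carry the description. The 6 knockout samples lay apart from the 3 WT samples for 4 of the 7 tested genes, against 29.7% of all genes tested. For each single comparison 5 of the 7 genes had groups that did not overlap, against 65.3% of all genes for Usp22-KOA and WT, 49.1% for Usp22-KOB and WT, and 58.3% for Usp22-KOA and Usp22-KOB. In bulk RNA, fewer cells of a type and less RNA per cell cannot be told apart.

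**Figure D1:**
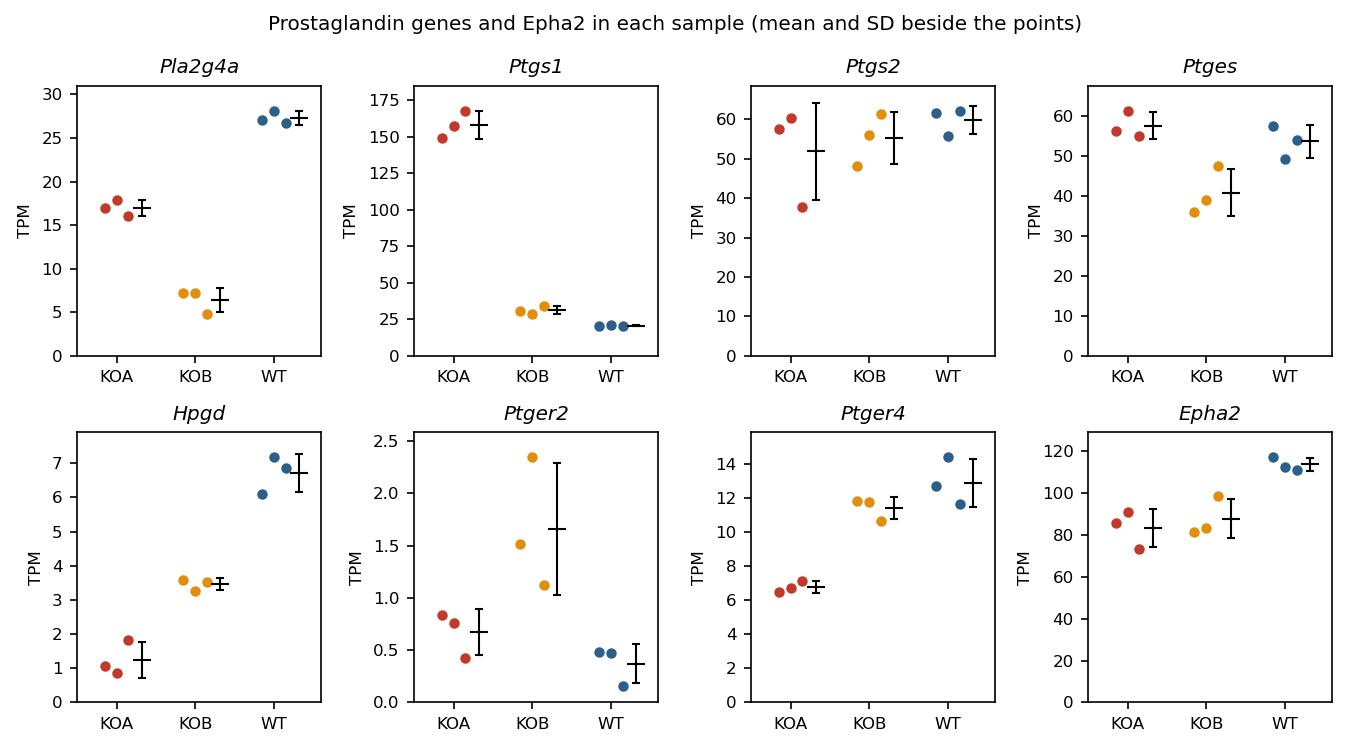
TPM of the 8 genes in each of the 9 samples (points; KOA is Usp22-KOA, KOB is Usp22-KOB), and beside them each group's mean and SD (n = 3 per group), on linear axes from 0. Ptgs1 lies at 149 to 168 TPM in Usp22-KOA and at 20.2 to 21.0 TPM in WT, Pla2g4a is lowest in Usp22-KOB, Hpgd is lowest in Usp22-KOA, and the Ptgs2 groups overlap.

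Pla2g4a, at the head of the pathway, was lower in both knockouts (chromosome 1, 149829618 to 149961290 in GRCm38, minus strand). Its level was 16.9, 17.9 and 16.0 TPM in Usp22-KOA samples and 7.16, 7.17 and 4.79 TPM in Usp22-KOB, against 27.0, 28.1 and 26.7 TPM in WT. The 3 groups do not overlap, and Usp22-KOB is lowest. Usp22-KOA samples kept 62.1% of the WT mean and Usp22-KOB samples 23.4%. The log2 difference from WT was -0.66 ± 0.13 in Usp22-KOA (limma adjusted p = 0.00204) and -1.96 ± 0.13 in Usp22-KOB (limma adjusted p = 1.18e-05). Of all tested genes, called or not, 197 had a more negative difference in Usp22-KOB against WT. The difference between Usp22-KOA and Usp22-KOB, 1.30 ± 0.13, passed as well (limma adjusted p = 5.34e-05). Pla2g4a and Ptgs2 are neighbours on chromosome 1, with a gap of 139 kb and 0 annotated protein-coding genes between them, and the values of Ptgs2 overlap between the groups.

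Pla2g5, a secreted phospholipase, rose in Usp22-KOA, where it stood at 6.00, 4.51 and 6.33 TPM, with 0.467, 0.853 and 0.263 TPM in Usp22-KOB and 0.994, 0.373 and 0.522 TPM in WT. Its log2 difference was 2.03 ± 0.21 for Usp22-KOA against WT (limma adjusted p = 4.49e-05) and 2.12 ± 0.21 for Usp22-KOA against Usp22-KOB (limma adjusted p = 5.6e-05). In Usp22-KOB against WT it was not called.

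Ptgs1, the cyclooxygenase known for its steady expression in many tissues, was the 1 gene of the 7 tested that rose against WT in each knockout (chromosome 2, 36230426 to 36252272, plus strand). Its levels were 149, 157 and 168 TPM in Usp22-KOA samples and 30.9, 29.0 and 34.5 TPM in Usp22-KOB, against 20.5, 21.0 and 20.2 TPM in WT. The 3 groups stand apart, and every knockout sample is above every WT sample. The mean was 158 ± 9.47 TPM in Usp22-KOA, 31.4 ± 2.81 TPM in Usp22-KOB and 20.6 ± 0.413 TPM in WT (SD, n = 3 each), so the level was 7.69 times WT in Usp22-KOA and 1.53 times WT in Usp22-KOB. The log2 difference from WT was 2.88 ± 0.07 (limma adjusted p = 2.11e-08) and 0.59 ± 0.07 (limma adjusted p = 4.45e-04). Of all 13843 tested genes, called or not, 100 had a larger positive difference in Usp22-KOA against WT and 1451 in Usp22-KOB against WT. Between the knockouts the difference was 2.30 ± 0.07 (limma adjusted p = 1.65e-07). When the 6 knockout samples were fitted as 1 group, this difference counted as spread and the call of the mean rise of 1.73 ended (limma adjusted p = 0.0945). An annotated transcript without a value in the table overlaps Ptgs1 exons on the opposite strand.

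Markers of mast cells, which are known to carry Ptgs1, moved the same way. All 6 mast cell markers rose in Usp22-KOA against WT and 4 of the 6 in Usp22-KOB against WT, and their summed level was 1802, 1430 and 861 TPM in Usp22-KOA samples and 66.2, 50.7 and 37.5 TPM in Usp22-KOB, against 5.18, 8.53 and 3.15 TPM in WT. Within Usp22-KOA, the sample with the most Ptgs1 (168 TPM) held the lowest mast cell sum (861 TPM), and the sample with the least Ptgs1 (149 TPM) held the highest (1802 TPM). Hpgds, which mast cells use to make prostaglandin D, averaged 4.32 ± 1.33 TPM in Usp22-KOA samples and 6.49 ± 2.01 TPM in Usp22-KOB, against 3.32 ± 0.656 TPM in WT (SD, n = 3 each). It was not called in Usp22-KOA against WT (0.28 ± 0.24, limma adjusted p = 0.35) and was called higher in Usp22-KOB against WT (0.77 ± 0.24, limma adjusted p = 0.0364), a call that did not hold under every alternative. The summed level of 5 platelet markers, another source of Ptgs1, ranged from 142 to 322 TPM in Usp22-KOA and from 295 to 548 TPM in Usp22-KOB, against 182 to 211 TPM in WT, with Gp9 listed at 0 in 2 of the 3 Usp22-KOA samples. Most of that sum was Pf4, which averaged 241 ± 93.0 TPM in Usp22-KOA samples and 425 ± 129 TPM in Usp22-KOB, against 190 ± 14.0 TPM in WT (SD, n = 3 each). Itga2b, an integrin subunit of platelets and 1 of the 3 platelet markers tested, rose in Usp22-KOA against WT, with 5.27 ± 1.09 TPM in Usp22-KOA samples and 1.22 ± 0.266 TPM in WT (SD, n = 3 each; 1.49 ± 0.16, limma adjusted p = 5.49e-05). Pf4 and Ppbp, the other 2 platelet markers tested, were not called in that comparison. Ppbp averaged 2.85 ± 1.04 TPM in Usp22-KOA samples and 14.4 ± 3.0 TPM in Usp22-KOB, against 4.18 ± 0.155 TPM in WT (SD, n = 3 each). Gp9 and Gp1bb, below the filter, stood at 22.2% and 47.1% of the WT mean in Usp22-KOA. Both were low in all groups. Gp9 averaged 0.0537 TPM in Usp22-KOA samples and 0.216 TPM in Usp22-KOB, against 0.242 TPM in WT. Gp1bb averaged 0.126, 0.3755 and 0.267 TPM in the same order. The part of mast cells and platelets in the Ptgs1 difference was not tested.

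Ptgs2, the inducible cyclooxygenase, did not pass in any of the 4 comparisons (chromosome 1, 150100031 to 150108227, plus strand). It stood at 57.5, 60.3 and 37.75 TPM in Usp22-KOA samples and 48.2, 56.1 and 61.2 TPM in Usp22-KOB, against 61.6, 55.8 and 62.2 TPM in WT. All 3 groups overlap, and Usp22-KOA replicate 3 is the lowest sample. The log2 difference from WT was -0.23 in Usp22-KOA, with a 95% confidence interval from -0.60 to 0.14 (limma adjusted p = 0.258), and without Usp22-KOA replicate 3 it was -0.022. In Usp22-KOB it was -0.12, with an interval from -0.49 to 0.25 (limma adjusted p = 0.601). Both intervals include a fall of the size measured for Epha2 in the same comparison, so a like level is not shown.

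The share of Ptgs1 in the summed cyclooxygenase mRNA was highest in Usp22-KOA and lowest in WT, with no overlap between the groups. Ptgs1 made up 72.2% to 81.7% of Ptgs1 plus Ptgs2 TPM in Usp22-KOA samples and 34.05% to 39.0% in Usp22-KOB, against 24.5% to 27.35% in WT. The sum was 206 to 218 TPM in Usp22-KOA samples and 79.1 to 95.7 TPM in Usp22-KOB, against 76.8 to 82.4 TPM in WT. Ptgs2 was the more abundant cyclooxygenase mRNA in Usp22-KOB and WT, and Ptgs1 in Usp22-KOA. These shares are descriptions without a test.

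**Figure D2:**
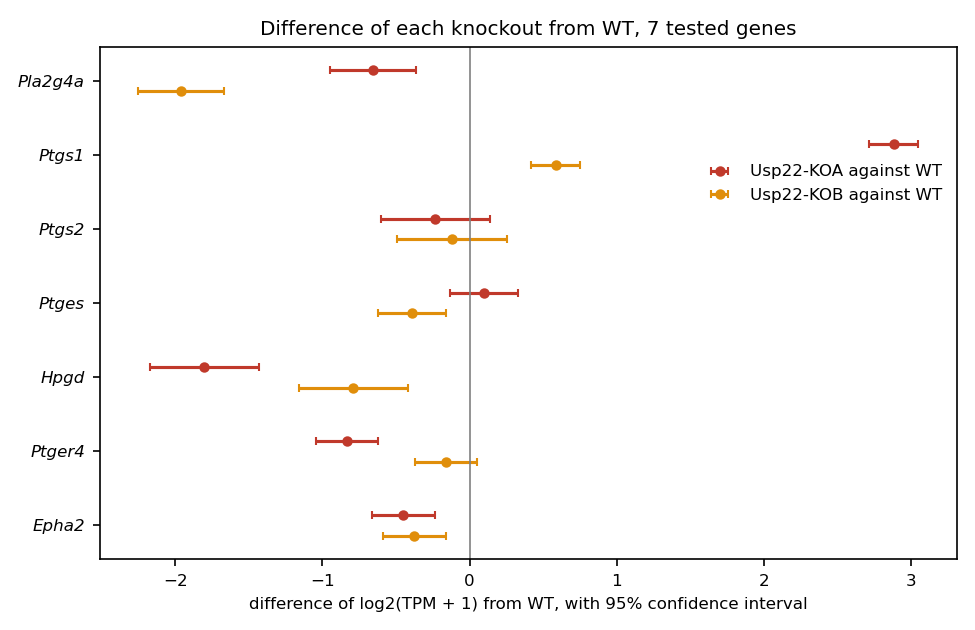
Difference of log2(TPM + 1) from WT for the 7 tested genes in Usp22-KOA and Usp22-KOB (points), with the 95% confidence interval of the limma fit (bars), 9 samples in all. Ptgs1 lies to the right of 0 in both knockouts, Pla2g4a, Hpgd and Epha2 lie to the left in both, and the intervals of Ptgs2 cross 0.

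Ptges, the inducible prostaglandin E synthase, was lower in Usp22-KOB and overlapped WT in Usp22-KOA (chromosome 2, 30889471 to 30929863, minus strand). Its values were 56.4, 61.4 and 55.0 TPM in Usp22-KOA samples and 36.1, 39.0 and 47.4 TPM in Usp22-KOB, against 57.5, 49.4 and 54.1 TPM in WT. The 3 Usp22-KOB samples lie below all samples of the other groups. In Usp22-KOB against WT the log2 difference was -0.39 ± 0.10 (limma adjusted p = 0.0159). The call ended without WT replicate 1 (-0.34, limma adjusted p = 0.0624), without Usp22-KOB replicate 1 (-0.31, 0.0536) and without Usp22-KOB replicate 2 (-0.36, 0.0576). In Usp22-KOA against WT the difference was 0.10 ± 0.10 (limma adjusted p = 0.424), and between Usp22-KOA and Usp22-KOB it was 0.49 ± 0.10 (limma adjusted p = 0.00344).

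The other synthases did not move as 1 group. Ptges2 and Ptges3, the further prostaglandin E synthases, rose slightly in Usp22-KOA against WT, by 0.63 ± 0.09 (limma adjusted p = 2.82e-04) and 0.41 ± 0.07 (limma adjusted p = 7.19e-04), and were not called in Usp22-KOB against WT. Ptgds, a prostaglandin D synthase, averaged 11.3 ± 1.24 TPM in Usp22-KOA samples and 48.0 ± 5.50 TPM in Usp22-KOB, against 28.8 ± 2.69 TPM in WT (SD, n = 3 each). It fell in Usp22-KOA (-1.27 ± 0.11, limma adjusted p = 1.38e-05) and rose in Usp22-KOB (0.72 ± 0.11, limma adjusted p = 0.00123). Of 7 fibroblast markers 5 fell in Usp22-KOA and 3 rose in Usp22-KOB, each against WT. Only Dcn did both, with 3.76 ± 1.04 TPM in Usp22-KOA samples and 39.2 ± 8.42 TPM in Usp22-KOB, against 13.7 ± 2.46 TPM in WT (SD, n = 3 each). Col1a1, Col1a2, Lum and Pdgfrb fell in Usp22-KOA and were not called in Usp22-KOB. Col3a1 and Pdgfra rose in Usp22-KOB and were not called in Usp22-KOA. The part of fibroblasts in the Ptgds values was not tested. Tbxas1, the thromboxane synthase, averaged 36.4 ± 8.58 TPM in Usp22-KOB and 12.3 ± 3.28 TPM in WT (SD, n = 3 each), and rose by 1.50 ± 0.31 (limma adjusted p = 0.00564). All 8 macrophage markers rose in that comparison too, and their part was not tested.

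Hpgd, the enzyme that begins prostaglandin inactivation, fell in both knockouts (chromosome 8, 56294585 to 56321043, plus strand). It stood at 1.05, 0.849 and 1.84 TPM in Usp22-KOA samples and 3.58, 3.27 and 3.53 TPM in Usp22-KOB, against 6.11, 7.18 and 6.87 TPM in WT. The 3 groups do not overlap, with Usp22-KOA lowest at 18.6% and Usp22-KOB at 51.5% of the WT mean. The log2 difference was -1.80 ± 0.16 in Usp22-KOA (limma adjusted p = 1.84e-05) and -0.79 ± 0.16 in Usp22-KOB (limma adjusted p = 0.00546). The difference between Usp22-KOA and Usp22-KOB was -1.01 ± 0.16 (limma adjusted p = 8.58e-04).

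The ratio of Ptges to Hpgd TPM, the synthase over the dehydrogenase, was at 53.6, 72.3 and 29.9 in the Usp22-KOA samples and 10.1, 11.9 and 13.4 in Usp22-KOB, against 9.41, 6.88 and 7.88 in WT. All knockout samples are above the WT samples, and the ratio in Usp22-KOB rests on a lower numerator as well as a lower denominator. In Usp22-KOA the denominator is small, with Hpgd at 0.849 to 1.84 TPM and Ptges at 55.0 to 61.4 TPM. The ratio there is thus sensitive to error in Hpgd. No test was made of this ratio, since it is built from genes chosen with results known.

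**Figure D3:**
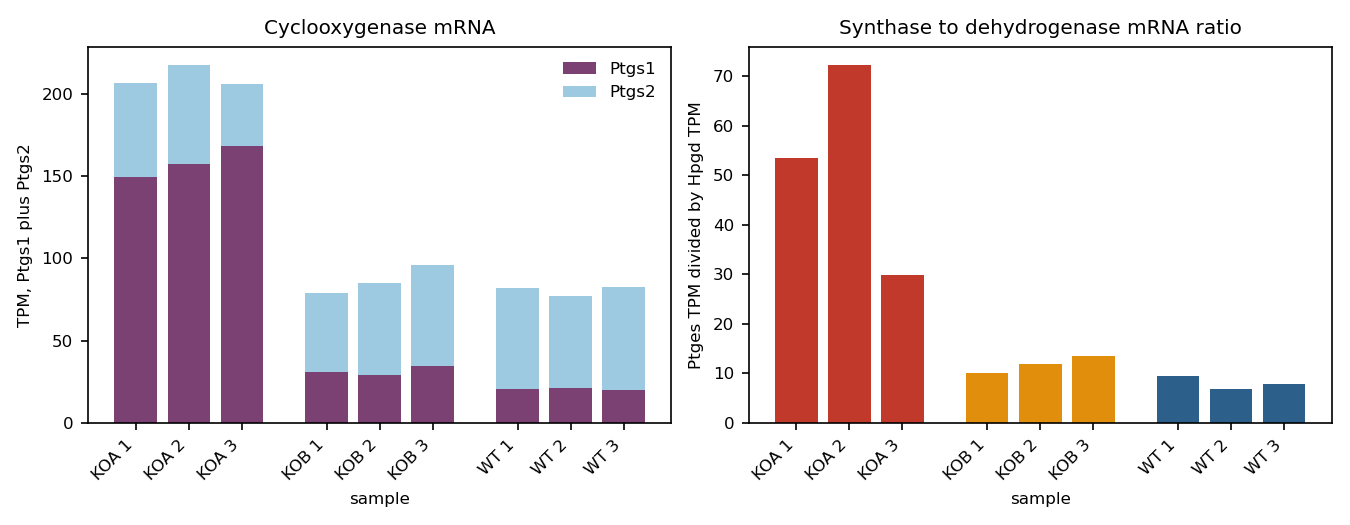
Left, TPM of Ptgs1 (dark) stacked with Ptgs2 (light) in each of the 9 samples; right, the ratio of Ptges to Hpgd TPM in each sample, both from 0. The summed cyclooxygenase level is 206 to 218 TPM in Usp22-KOA samples and 76.8 to 82.4 TPM in WT. The ratio is 29.9 to 72.3 in Usp22-KOA, where Hpgd is only 0.849 to 1.84 TPM, and 6.88 to 9.41 in WT.

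Among the other genes that clear or carry prostaglandins, Ptgr1, which reduces the product of Hpgd, fell with it. Ptgr1 averaged 10.3 ± 0.624 TPM in Usp22-KOA samples and 24.4 ± 3.14 TPM in Usp22-KOB, against 34.9 ± 2.36 TPM in WT (SD, n = 3 each). Its log2 difference was -1.66 ± 0.10 in Usp22-KOA (limma adjusted p = 1.71e-06) and -0.51 ± 0.10 in Usp22-KOB (limma adjusted p = 0.00461). Cbr1, a carbonyl reductase that acts on prostaglandin E, fell by 0.57 ± 0.10 in Usp22-KOA (limma adjusted p = 8.38e-04) and by 1.20 ± 0.10 in Usp22-KOB (limma adjusted p = 3.16e-05). Slco2a1, which takes prostaglandins up into cells, rose by 1.15 ± 0.13 in Usp22-KOA (limma adjusted p = 7.74e-05) and by 0.51 ± 0.13 in Usp22-KOB (limma adjusted p = 0.0148). It stood at 28.4, 26.1 and 36.2 TPM in Usp22-KOA samples and 16.6, 18.3 and 22.1 TPM in Usp22-KOB, against 12.9, 12.8 and 13.1 TPM in WT.

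Ptger4, a receptor that raises cyclic AMP, fell in Usp22-KOA (chromosome 15, 5206661 to 5244187, minus strand). It stood at 6.46, 6.74 and 7.16 TPM in Usp22-KOA samples and 11.8, 11.8 and 10.7 TPM in Usp22-KOB, against 12.7, 14.4 and 11.6 TPM in WT. Usp22-KOA lies below the other groups, while Usp22-KOB and WT overlap. The log2 difference from WT was -0.83 ± 0.09 in Usp22-KOA (limma adjusted p = 6.97e-05). In Usp22-KOB it was -0.16, with a 95% confidence interval from -0.37 to 0.05 (limma adjusted p = 0.21). The difference between Usp22-KOA and Usp22-KOB was -0.67 ± 0.09 (limma adjusted p = 3.83e-04). The call of the mean of both knockouts, -0.50, ended with the 6 knockout samples as 1 group (limma adjusted p = 0.126). Exons of Ttc33, on the opposite strand, overlap Ptger4, and the sources used here do not say whether reads were assigned by strand, so the value of Ptger4 is uncertain to that degree. Ttc33 stood at 33.5 ± 1.75 TPM in Usp22-KOA samples and 26.2 ± 2.62 TPM in Usp22-KOB, against 25.7 ± 2.37 TPM in WT (SD, n = 3 each), and rose in Usp22-KOA by 0.37 ± 0.09 (limma adjusted p = 0.00785).

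Ptger2, the other receptor of that kind, was low in all samples (chromosome 14, 44988195 to 45003820, plus strand). It stood at 0.839, 0.763 and 0.427 TPM in Usp22-KOA samples and 1.51, 2.35 and 1.12 TPM in Usp22-KOB, against 0.481, 0.477 and 0.155 TPM in WT. The 3 Usp22-KOB samples are above all others, and Usp22-KOA overlaps WT. The 6 knockout samples differed from WT by 0.61 on the log2 scale, which did not pass an exact two-sided permutation test (p = 0.0714 over 84 splits). With no filter on low values the limma call passed (0.61, adjusted p = 0.018), and in Usp22-KOB against WT the difference was then 0.94 ± 0.19 (limma adjusted p = 0.0076). Annotated genes on the opposite strand also overlap exons of Ptger2. The summed level of 8 macrophage markers was 2972, 2494 and 1182 TPM in Usp22-KOA samples and 9341, 9156 and 5257 TPM in Usp22-KOB, against 1863, 2928 and 1950 TPM in WT, so it too was highest in Usp22-KOB. The part of macrophages in the Ptger2 values was not tested.

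The remaining receptors of prostaglandin E moved in opposite directions. Ptger3, which lowers cyclic AMP, stood at 0.531, 0.654 and 0.405 TPM in Usp22-KOA samples and 2.05, 2.44 and 4.04 TPM in Usp22-KOB, against 38.3, 33.8 and 37.5 TPM in WT. Its log2 difference was -4.62 ± 0.18 in Usp22-KOA (limma adjusted p = 1.6e-07) and -3.32 ± 0.18 in Usp22-KOB (limma adjusted p = 3.48e-06). Ptger3 was thus the most abundant prostaglandin E receptor mRNA in WT by its mean, with Ptger1 at 34.0 ± 2.96 TPM (SD, n = 3), and the ranges of the pair overlap there. Ptger1, which raises intracellular calcium, averaged 56.2 ± 1.20 TPM in Usp22-KOA samples and 46.0 ± 1.97 TPM in Usp22-KOB (SD, n = 3 each). It rose by 0.71 ± 0.07 in Usp22-KOA (limma adjusted p = 3.0e-05) and by 0.43 ± 0.07 in Usp22-KOB (limma adjusted p = 0.00169).

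Epha2 fell in both knockouts (chromosome 4, 141301240 to 141329384, plus strand). Its levels were 85.6, 91.0 and 73.2 TPM in Usp22-KOA samples and 81.4, 83.4 and 98.5 TPM in Usp22-KOB, against 117, 113 and 111 TPM in WT. All 6 knockout samples lie below the 3 WT samples, and the knockouts overlap each other. Usp22-KOA samples kept 73.2% of the WT mean and Usp22-KOB samples 77.2%. The log2 difference from WT was -0.45 ± 0.09 in Usp22-KOA (limma adjusted p = 0.00293) and -0.37 ± 0.09 in Usp22-KOB (limma adjusted p = 0.0135). The Usp22-KOB call ended without WT replicate 1 (-0.35, limma adjusted p = 0.0501) and without Usp22-KOB replicate 2 (-0.34, 0.0525). Between Usp22-KOA and Usp22-KOB the difference was -0.08, with a 95% confidence interval from -0.29 to 0.14 (limma adjusted p = 0.529). In size, 2976 of the tested genes, called or not, had a more negative difference in Usp22-KOA and 2268 in Usp22-KOB, each against WT. Its promoter window, shown above with the full cyclic AMP response element in capitals, gives no measure of that element's use.

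Efna1, an ephrin-A ligand of Epha2, stood at 15.3, 17.0 and 15.0 TPM in Usp22-KOA samples and 30.2, 38.1 and 35.1 TPM in Usp22-KOB, against 83.7, 83.5 and 90.9 TPM in WT. It fell by 2.38 ± 0.09 in Usp22-KOA (limma adjusted p = 1.55e-07) and by 1.30 ± 0.09 in Usp22-KOB (limma adjusted p = 1.58e-05). Efna4, another ephrin-A, fell by 1.85 ± 0.20 (limma adjusted p = 5.54e-05) and 1.67 ± 0.20 (limma adjusted p = 3.48e-04) in the same comparisons. The receptors Ephb3 and Epha1 fell in both knockouts too, by 2.37 ± 0.13 and 1.82 ± 0.14 in Usp22-KOA and by 1.81 ± 0.13 and 1.12 ± 0.14 in Usp22-KOB (limma adjusted p at most 4.29e-04). Ephb4, a receptor of ephrin-B, and the ligand Efnb1 rose in Usp22-KOA against WT, by 0.73 ± 0.07 and 0.89 ± 0.09 (limma adjusted p = 2.97e-05 each). In Usp22-KOB against WT the signs were opposite: Ephb4 fell by 0.23 ± 0.07 (limma adjusted p = 0.0312), a call that did not hold under every alternative, and Efnb1 differed by -0.24 ± 0.09, which was not called (limma adjusted p = 0.0586) but passed under some alternatives, such as quantile normalization (-0.26, limma adjusted p = 0.028).

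As a whole, the wider lists were mixed in direction, and their counts stand beside 56.3% of all genes called in Usp22-KOA against WT and 37.1% in Usp22-KOB against WT. Of 30 other prostanoid genes 21 were tested, and 6 rose and 4 fell in Usp22-KOA against WT, with a median log2 difference of -0.17, while the median of all genes tested was 0.02. In Usp22-KOB against WT 7 rose and 3 fell, with a median of 0.36 against -0.01 for all genes tested. Of 21 other Eph receptors and ephrins 11 were tested, and 4 rose and 7 fell in Usp22-KOA (median -1.31), while 1 rose and 5 fell in Usp22-KOB (median -0.23). Genes of the leukotriene branch, which also starts from arachidonic acid, numbered 8 tested of 13. In Usp22-KOA against WT 1 of them rose and 1 fell: Lta4h, which makes leukotriene B, rose by 0.61 ± 0.06 (limma adjusted p = 4.56e-05), and Ltc4s, the leukotriene C synthase, fell by 2.55 ± 0.32 (limma adjusted p = 1.33e-04). In Usp22-KOB against WT 4 rose and 0 fell, and each of those 4 calls was lost under at least 1 alternative. Those 4 were Alox5ap, the partner protein of 5-lipoxygenase, Alox15, a lipoxygenase, Cysltr1, a leukotriene receptor, and Ltc4s. Alox5ap averaged 44.4 ± 21.2 TPM in Usp22-KOA samples and 135 ± 52.6 TPM in Usp22-KOB, against 43.9 ± 15.3 TPM in WT (SD, n = 3 each). Alox5, the 5-lipoxygenase itself, averaged 10.6 ± 4.44 TPM in Usp22-KOA samples and 14.1 ± 5.56 TPM in Usp22-KOB, against 6.60 ± 2.72 TPM in WT (SD, n = 3 each). All 8 macrophage markers rose in Usp22-KOB against WT, and their part was not tested.

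**Figure D4:**
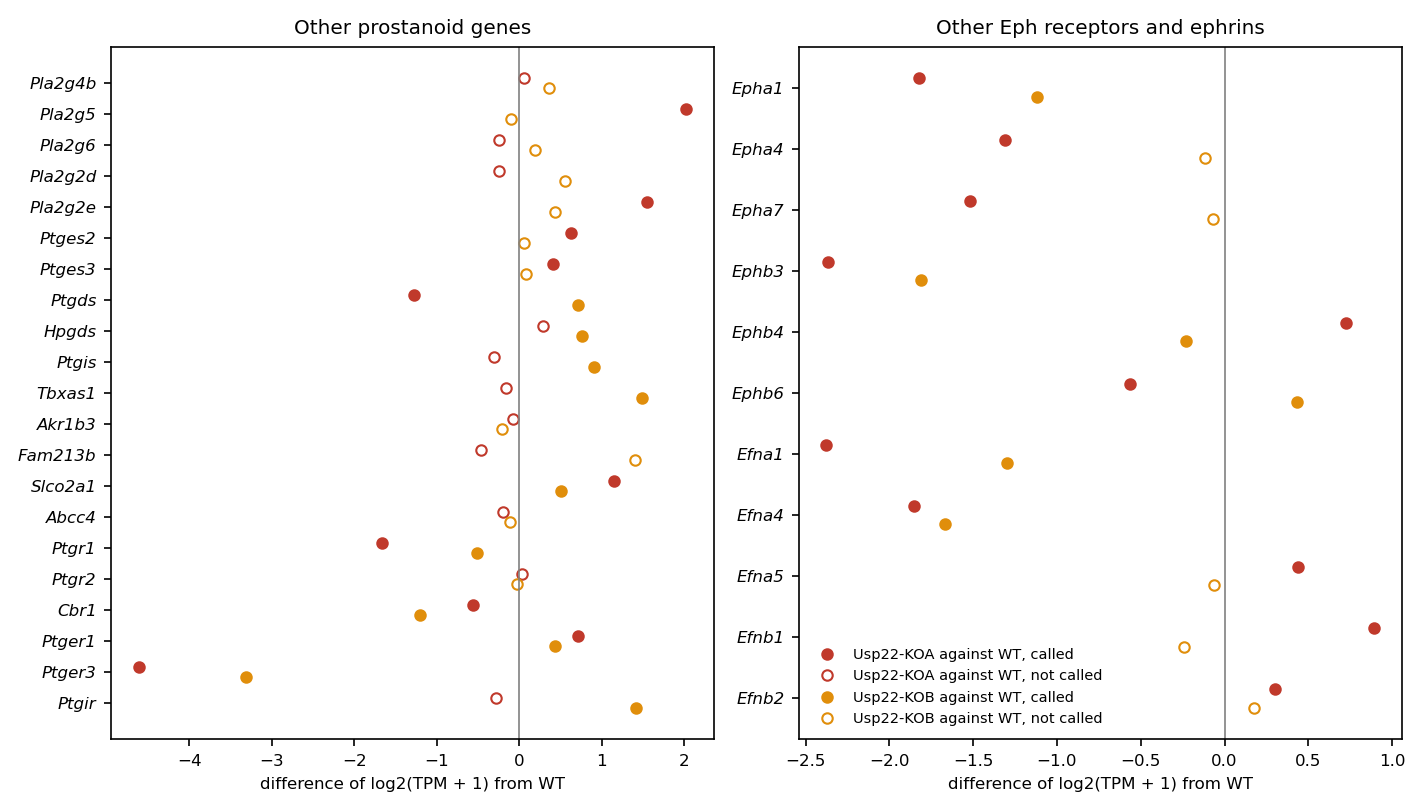
Difference of log2(TPM + 1) from WT of the 21 tested genes of the wider prostanoid list (left) and the 11 of the Eph and ephrin list (right); filled points passed the limma test and open points did not, in red for Usp22-KOA and orange for Usp22-KOB. Ptger3 lies farthest left, at -4.62 in Usp22-KOA and -3.32 in Usp22-KOB, and Efna1, Efna4, Epha1 and Ephb3 are filled and left of 0 in both knockouts.

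Since TPM is per length, levels can be ordered between genes. In Usp22-KOA the order of means was Ptgs1, Epha2, Ptges, Ptgs2, Pla2g4a, Ptger4, Hpgd and Ptger2, and among neighbours only the ranges of Ptges and Ptgs2 overlap. In Usp22-KOB it was Epha2, Ptgs2, Ptges, Ptgs1, Ptger4, Pla2g4a, Hpgd and Ptger2, and no neighbours overlap. In WT it was Epha2, Ptgs2, Ptges, Pla2g4a, Ptgs1, Ptger4, Hpgd and Ptger2, with overlap of Ptgs2 and Ptges only.

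Genes of the most similar profile were sought among 10417 genes that averaged 5 TPM or more, by the root mean square difference of log2(TPM + 1) over the 9 samples after each gene was centred on its own mean. For Ptgs1 these were Ifi27l2b (0.14), Plin4 (0.19) and Plac9a (0.21), where Ptgs1 itself varies by 1.25 about its mean. Ifi27l2b averaged 516 ± 85.1 TPM in Usp22-KOA samples and 112 ± 16.7 TPM in Usp22-KOB, against 74.7 ± 8.69 TPM in WT (SD, n = 3 each). Closest to Pla2g4a, which varies by 0.83, were Degs2 (0.16), Rnf186 (0.21) and Gmds (0.24). Those closest to Hpgd, which varies by 0.76, were Nectin2, Slit2 and Fbxo32 (0.15, 0.15 and 0.16), and to Ptger4, which varies by 0.37, Cox5b, Aldh2 and Hmgb2 (0.08, 0.08 and 0.09). Epha2 varies by 0.22 and was closest to Casp6, Cbx3 and Cnn3 (0.06, 0.07 and 0.07). Ptges varies by 0.24 and was closest to Far1, Hs3st1 and C77080 (0.06, 0.06 and 0.07). Ptgs2 varies by 0.22 and had a less close match, in Nup43, Egln3 and Mcm10 (0.09, 0.11 and 0.12).

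The labelled cell type was checked against 6 epithelial and ductal markers. Their summed level was 6119 to 6895 TPM in Usp22-KOA samples and 6238 to 7627 TPM in Usp22-KOB, against 6925 to 7409 TPM in WT, and none was at 0 in any sample. Epcam, one of them, averaged 37.6 ± 15.2 TPM in Usp22-KOA samples and 31.3 ± 5.31 TPM in Usp22-KOB, against 379 ± 18.4 TPM in WT (SD, n = 3 each). Most of the epithelial sum was Krt8, Krt19 and Krt18, which averaged 2534, 2263 and 1508 TPM over the 9 samples, so it says little of the others. In Usp22-KOA 4 of the 6 fell against WT (Epcam, Krt18, Cdh1 and Sox9) and 1 rose (Krt19). In Usp22-KOB 2 fell (Epcam and Sox9). Sox9 stood at 48.1% of the WT mean in Usp22-KOA and 63.65% in Usp22-KOB. Markers of other cells differed between the groups too. The sum of 7 fibroblast markers was 180.1 to 208 TPM in Usp22-KOA samples and 771 to 1179 TPM in Usp22-KOB, against 482 to 897 TPM in WT. The sum of 5 endothelial markers was 3.60 to 7.99 TPM in Usp22-KOA samples and 16.3 to 24.2 TPM in Usp22-KOB, against 15.4 to 26.1 TPM in WT, and the 4 of them tested fell in Usp22-KOA against WT. The sum of 4 leukocyte markers was 179 to 384 TPM in Usp22-KOA samples and 285 to 583 TPM in Usp22-KOB, against 136.5 to 238 TPM in WT. Between 13037 and 13940 genes reached 1 TPM in a sample.

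**Figure D5:**
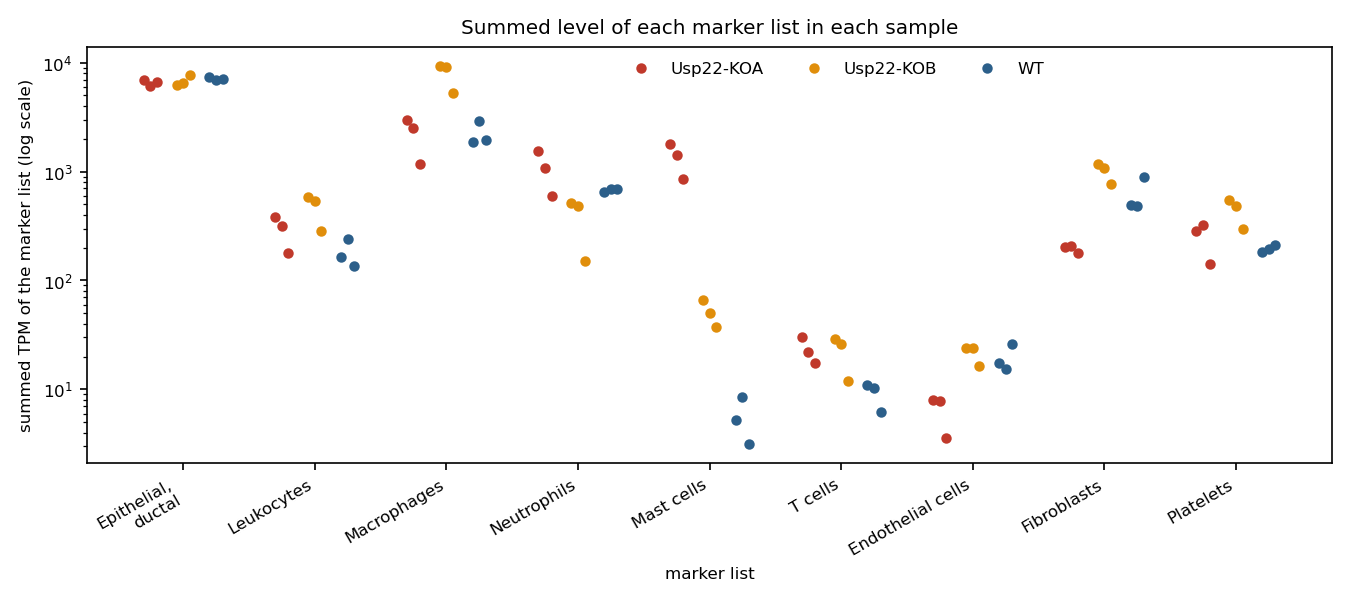
Summed TPM of each marker list in each of the 9 samples (points, log scale), for Usp22-KOA, Usp22-KOB and WT. Mast cell markers lie at 861 to 1802 TPM in Usp22-KOA and at 3.15 to 8.53 TPM in WT, macrophage markers are highest in Usp22-KOB, and epithelial and ductal markers lie between 6119 and 7627 TPM in all samples. Most of the epithelial and ductal sum is Krt8, Krt18 and Krt19.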

How the data were processed

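The deposited table holds TPM values, made by the authors, for 9 samples, and each column was matched to a sample by its label. Salmon, DESeq2 and mm10 are named in the submitters' processing notes, without roles or versions. Depth cannot be recovered from TPM and is unknown, so precision rests on the scatter within each group of 3 samples.

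From the deposited TPM, log2(TPM + 1) was fitted with limma 3.58.1 in R 4.3.3 (1 mean per group, intensity trend, 9 samples, no replicate block), over the 13843 genes that averaged 1 TPM or more, and 10650 were set aside. P-values were Benjamini-Hochberg adjusted over all genes tested. Confidence intervals are at 95%. The fit was tested on simulated data with known changes. That simulation had independent noise and the same change in both knockouts for few genes. It therefore says nothing of changes as broad as those called here, or of technical replicates. Ptger2, below the filter, had an exact permutation test. Figures were drawn with matplotlib 3.10.9, and ratios and tables made with pandas 2.3.3 under Python 3.11.15. Coordinates come from GENCODE M21 (GRCm38), by symbol, and promoters from RefSeq (GRCm38.p6).

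The genes and lists were chosen with earlier results of these data known. Named genes were the 8 genes, Usp22, from each wider list the 4 smallest adjusted p for the mean of both knockouts and 2 more between the knockouts, and 3 most similar profiles per tested gene. Slco2a1, Ptges2, Ptges3, Tbxas1, Hpgds, Ttc33, Itga2b, Ppbp, Gp1bb and Dcn were chosen after their values were seen. So were the other fibroblast markers, the epithelial markers beside Epcam, and which comparisons of the wider lists are printed. Alternatives were other pseudocounts, filters and scalings, no trend, a replicate block, only the groups compared, the knockouts as 1 group, and samples left out.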

Additional observations from a re-analysis of the deposited data

Results flagged for a closer look

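For 5 of the 7 tested genes the difference from WT itself differed between the knockouts, by the limma test of Usp22-KOA against Usp22-KOB (adjusted over all genes, 51.7% of which passed). Ptgs1 was higher in Usp22-KOA by 2.30, Pla2g4a by 1.30 and Ptges by 0.49 on the log2(TPM + 1) scale, each in 3 of 3 samples. Hpgd and Ptger4 were lower in Usp22-KOA, by -1.01 and -0.67, also in 3 of 3 samples. The comparisons with WT share the same 3 WT samples.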

How the results depend on the processing

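Each comparison was refitted under the alternatives that apply to it. With the 6 knockout samples as 1 group, 2946 genes in place of 6920, and 3 of the 8 genes in place of 5, were called for the knockouts against WT, since differences between the knockouts then count as spread: Ptgs1 (1.73) and Ptger4 (-0.50) were no longer called. Quantile normalization brought the mean of both knockouts for Ptges past the threshold (-0.22, limma adjusted p = 0.0439) and turned its uncalled difference in Usp22-KOA against WT to -0.0109. Leaving out 1 sample in turn moved the count of the 8 genes called in Usp22-KOB against WT between 3 and 5, with Ptges between -0.50 and -0.31 and Epha2 between -0.46 and -0.32. In the mean of both knockouts Ptges ranged from -0.20 to -0.10, called without Usp22-KOB replicate 3 (limma adjusted p = 0.0319), and Ptger2 from 0.48 to 0.72, passing the exact permutation test without Usp22-KOA replicate 3 (p = 0.0357). Without a filter Ptger2 passed as well (0.61). In Usp22-KOA against Usp22-KOB, where neither was called, Ptgs2 ranged from -0.23 to 0.10 (above 0 without Usp22-KOA replicate 3; in Usp22-KOA against WT from -0.35 to -0.022, nearest 0 without that sample) and Epha2 from -0.14 to 0.013 (above 0 without replicate 3 of either knockout). The causes were not tested. Of the wider lists, 10 of 10 prostanoid calls in Usp22-KOA and 9 of 10 in Usp22-KOB against WT held under each of the 19 alternatives that tested the gene, as did 10 of 11 and 4 of 6 calls of Eph receptors and ephrins. Of these called genes, 2 and 3 prostanoid genes and 3 and 2 Eph receptors average under 5 TPM and were not tested under the stricter filter. Whether the replicate numbers pair the samples is not settled. The correlation of same-numbered deviations from the group means ran from -0.125 to 0.276, and of differently numbered ones from -0.235 to 0.201. Between the knockouts the same-numbered values were 0.187, 0.077 and 0.276, with the others from -0.235 to 0.104. With the replicate number as a block, 6702 genes were called for the mean of both knockouts and 5 of the 8 genes in each comparison, with Epha2 at -0.41 (limma adjusted p = 0.00759), and no call of the 8 genes changed. TPM gives no depth, so the error of low genes such as Ptger2 and Hpgd in Usp22-KOA cannot be set apart from counting error.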
